A study of Mus musculus with 20 samples.

Results

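Primary granule genes of early granulocytes were followed in mouse LSK and MEP cells of 4 genotypes. The set holds 6 of the 24315 genes listed: Mpo, Elane, Prtn3, Ctsg, Ms4a3 and Lyz2. The genes were chosen by their level in Bcor-/- LSK cells, where Mpo and Elane were seen to rise, so the comparison of Bcor-/- with WT in LSK is given as a description without a test. RNA was sequenced from LSK cells (Lin-Sca1+Kit+), the bone marrow fraction with the stem and multipotent progenitor cells, and from MEP cells (Lin-Sca1-Kit+CD34- with low or no FcgRII/III), the megakaryocyte-erythroid progenitors, both sorted from the same C57BL/6 mice. Each cell type gave 10 libraries: 3 WT, 3 Dnmt3a-/-, 2 Bcor-/- and 2 Bcor-/-Dnmt3a-/-. The alleles were conditional ones, removed by Mx1-Cre, a recombinase under an interferon-inducible promoter that pIpC switches on and that is not limited to blood cells. Deletion of Bcor removes some of its exons only. The study describes the Dnmt3a deletion as incomplete in the single knockout and as complete in leukemic double mutants, so the Dnmt3a-/- comparisons do not stand for full loss. WT mice had untargeted genes. The WT libraries share the stem of their labels with the Dnmt3a-/- libraries, and no WT library carries the stem of the Bcor-/- labels. The label of 1 Bcor-/- sample in each cell type names 2 mice, so that library may hold a pool. The study describes the double knockout mice it profiled as leukemic, whereas the sample labels give neither disease stage nor age.

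Granulocytes make their granules in waves. The primary, or azurophil, granules come early, at the promyelocyte stage, and their genes are switched off again as the cell matures. Mpo encodes myeloperoxidase, which makes hypochlorous acid. Elane, Prtn3 and Ctsg encode neutrophil elastase, proteinase 3 and cathepsin G, the serine proteases of the granule. Ms4a3 encodes a membrane protein that marks granulocyte-monocyte progenitors. Lyz2 encodes lysozyme M, which is also made by monocytes and macrophages and stays on in mature neutrophils, unlike the other members. Bcor is a corepressor that is part of a variant Polycomb complex, and Dnmt3a is a de novo DNA methyltransferase. Both are mutated in human myeloid malignancies.

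The promoters are shown because the 5 genes other than Lyz2 moved together across the libraries. In LSK that pattern includes the Bcor-/- values that chose the genes, so the promoters are given as a description. Each stretch is the 250 bases before the RefSeq transcription start in GRCm38.p6, 5′ to 3′ on the gene's own strand; the expression tables were made on mm9, and no coordinate is carried between both builds. The positions are chr11:87793534-87793783 (plus strand) for Mpo, chr10:79886062-79886311 (plus) for Elane, chr10:79879417-79879666 (plus) for Prtn3, chr14:56102575-56102824 (minus) for Ctsg, chr19:11640852-11641101 (minus) for Ms4a3 and chr10:117282273-117282522 (minus) for Lyz2. Capitals mark matches, on either strand, to 5 short motifs known for granulocyte promoters: GAGGAA (PU.1-like), TTGCNNAA (C/EBP-like), TGNGGT (RUNX-like), AACGG (MYB-like) and TATAA (TATA-like).
Mpo: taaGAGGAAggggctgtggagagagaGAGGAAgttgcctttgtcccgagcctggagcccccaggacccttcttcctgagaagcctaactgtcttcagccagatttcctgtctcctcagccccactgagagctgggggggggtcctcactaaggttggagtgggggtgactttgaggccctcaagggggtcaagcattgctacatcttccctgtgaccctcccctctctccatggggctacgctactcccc
Elane: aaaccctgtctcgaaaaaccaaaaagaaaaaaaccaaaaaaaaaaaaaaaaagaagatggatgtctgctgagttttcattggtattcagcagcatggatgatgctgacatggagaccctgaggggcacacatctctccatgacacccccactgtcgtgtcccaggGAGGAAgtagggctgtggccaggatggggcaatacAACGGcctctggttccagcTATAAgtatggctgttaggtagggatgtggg
Prtn3: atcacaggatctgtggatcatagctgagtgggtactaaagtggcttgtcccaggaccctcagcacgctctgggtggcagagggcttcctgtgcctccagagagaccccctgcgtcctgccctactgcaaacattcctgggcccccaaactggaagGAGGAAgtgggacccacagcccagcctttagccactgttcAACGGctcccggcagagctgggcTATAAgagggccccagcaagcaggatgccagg
Ctsg: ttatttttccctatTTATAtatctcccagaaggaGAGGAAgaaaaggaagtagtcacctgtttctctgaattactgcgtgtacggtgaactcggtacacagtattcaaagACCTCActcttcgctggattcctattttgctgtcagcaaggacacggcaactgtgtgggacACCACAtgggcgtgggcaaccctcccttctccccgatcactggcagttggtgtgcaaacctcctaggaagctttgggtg
Ms4a3: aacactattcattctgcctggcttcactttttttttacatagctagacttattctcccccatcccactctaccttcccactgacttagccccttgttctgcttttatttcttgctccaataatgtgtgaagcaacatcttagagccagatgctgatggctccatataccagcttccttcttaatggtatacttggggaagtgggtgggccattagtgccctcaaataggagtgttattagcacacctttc
Lyz2: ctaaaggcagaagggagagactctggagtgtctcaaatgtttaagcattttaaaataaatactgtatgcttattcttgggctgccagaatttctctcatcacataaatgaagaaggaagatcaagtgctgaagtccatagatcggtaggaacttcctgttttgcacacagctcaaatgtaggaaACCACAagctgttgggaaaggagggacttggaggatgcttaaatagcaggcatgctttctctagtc

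GAGGAA was found before 4 of the 6 genes: Mpo, where it occurs 2 times, 247 and 224 bases before the start, Elane (85 bases), Prtn3 (95 bases) and Ctsg (216 bases). Of all 32851 RefSeq promoters of this length, 23.3% hold it. Elane and Prtn3, which are neighbours on chromosome 10 and lie on the same strand, have the same order of matches: GAGGAA, then AACGG 50 and 55 bases before the start, then TATAA at 31 and 32 bases. AACGG was found in 2 of the 6 stretches against 14.5% of all, and TATAA in 3 of 6 against 22.8%, the third being Ctsg on the other strand at 236 bases. TGNGGT was found on the other strand in Ctsg (140 and 79 bases) and Lyz2 (66 bases), against 40.1% of all promoters. TTGCNNAA was found in none of the 6 stretches and in 9.56% of all. Ms4a3 held no match to any of these letters. Such matches are descriptions of letters in a window and no binding was measured.

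Sorted identity was checked on defining markers before the members were read. WT LSK libraries held Kit at 148 to 174 FPKM (fragments scaled to transcript length and sequencing depth), Cd34 at 548 to 649.7 FPKM and Flt3 at 197 to 247 FPKM. WT MEP libraries held Gata1 at 170.2 to 225 FPKM and Klf1 at 144 to 192 FPKM, with Ly6a, the gene of Sca1, at most 0.790 FPKM. The double knockout LSK libraries departed from their label in part. Ly6a was 63.5 and 220.2 FPKM against 59.8 to 70.7 FPKM in WT, whereas Kit was 47.7 and 19.4 FPKM, Cd34 was 5.87 and 37.3 FPKM, and the summed level of 9 erythroid genes was 5775 and 20722 FPKM against 88.6 to 204 FPKM in WT. The double knockout MEP libraries departed too, with Kit at 38.1 and 20.2 FPKM against 77.0 to 83.5 FPKM in WT and Ly6a at 17.8 and 1.87 FPKM. The double knockout libraries also resembled each other least, with r = 0.849 in LSK and 0.815 in MEP across genes, while replicates of the other genotypes had r between 0.971 and 0.987. Bcor RNA, read over the whole gene, was 29.5 to 32.4 FPKM in WT LSK, 22.4 and 23.2 FPKM in Bcor-/- LSK, and 24.0 and 37.4 FPKM in double knockout LSK. It therefore does not check the deletion, which covers part of the gene. The paper describes the resulting mRNA as highly unstable and reports none detected by PCR in Bcor-/- LSK cells. The levels over the whole gene did not show such a loss. Dnmt3a RNA was 16.1 to 19.8 FPKM in WT LSK, 11.3 to 16.9 FPKM in Dnmt3a-/- LSK, which overlaps WT, and 10.4 and 10.9 FPKM in double knockout LSK. In MEP it was 5.49 to 6.64 FPKM in WT and 2.56 to 5.40 FPKM in Dnmt3a-/-. The lower double knockout MEP library had 3.44 FPKM and the higher 6.85 FPKM, which is above every WT MEP library. Read counts were not used here, so absolute depth is unknown and no counting interval is given. Steps between the lowest FPKM values gave an estimate of relative depth, with WT replicate 1 of each cell type set to 1: LSK libraries ranged from 0.79 to 1.32 and MEP libraries from 1 to 1.60. In these bulk samples, fewer cells of a type and less RNA per cell cannot be told apart.

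Mpo was among the most abundant transcripts of Bcor-/- LSK cells. Its level was 4710.0 and 8426 FPKM in the Bcor-/- libraries, against 788, 1532 and 785 FPKM in WT, 644, 1088 and 1019.8 FPKM in Dnmt3a-/-, and 221 and 891 FPKM in Bcor-/-Dnmt3a-/-. Both Bcor-/- libraries lay above every library of the other genotypes. Ranked over all genes of the library, Mpo stood at places 2 and 1 in Bcor-/- and at places 41, 19 and 35 in WT. The difference between Bcor-/- and WT was 2.68 on the log2(FPKM + 1) scale, or 6.41-fold.

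The serine proteases were also highest in Bcor-/- LSK cells. Elane stood at 3351 and 5593 FPKM in Bcor-/- LSK, where it took places 3 and 2 of all genes, and at 217, 812 and 343 FPKM in WT, a difference of 3.46 on the log2 scale (11.0-fold). Elane in the other genotypes was 222, 437 and 471 FPKM (Dnmt3a-/-) and 154 and 703 FPKM (double knockout), overlapping WT. Prtn3 was 2614 and 3893 FPKM in Bcor-/- and 298, 697 and 376 FPKM in WT (2.90 on the log2 scale, 7.44-fold). Ctsg was 1540.3 and 2252 FPKM in Bcor-/- and 212, 411 and 217 FPKM in WT (2.80 on the log2 scale, 6.97-fold). For both proteases the Bcor-/- libraries did not overlap any other genotype, while Dnmt3a-/- (262, 375 and 484 FPKM for Prtn3, 164, 376 and 290.1 FPKM for Ctsg) and the double knockout (138 and 477 FPKM, 56.1 and 258 FPKM) overlapped WT.

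Ms4a3 had the lowest mean of the 6 members in LSK of each genotype except Bcor-/-, where Lyz2 did. It reached 656 and 991 FPKM in Bcor-/- LSK against 48.6, 144 and 69.3 FPKM in WT (3.34 on the log2 scale, 10.1-fold), 42.0, 133 and 108 FPKM in Dnmt3a-/-, and 32.4 and 131 FPKM in the double knockout. Lyz2 stood apart from the other members. Its level was 390.1 and 335 FPKM in Bcor-/- and 305, 602 and 261 FPKM in WT, a difference of -0.01 on the log2 scale with overlapping libraries. Over the 6 members the median difference was 2.85, against -0.01 over the 11952 LSK genes that averaged 1 FPKM or more. The 5 genes other than Lyz2 had both Bcor-/- libraries above all WT libraries with more than a 1.5-fold difference, which held for 8.09% of all genes. Since these values chose the genes, nothing is read from that count. The exact WT level depended on WT replicate 2, which was the highest WT library for 6 of 6 members. Leaving out any of the 5 libraries in turn gave median differences from 2.57 to 3.18.

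**Figure D1:**
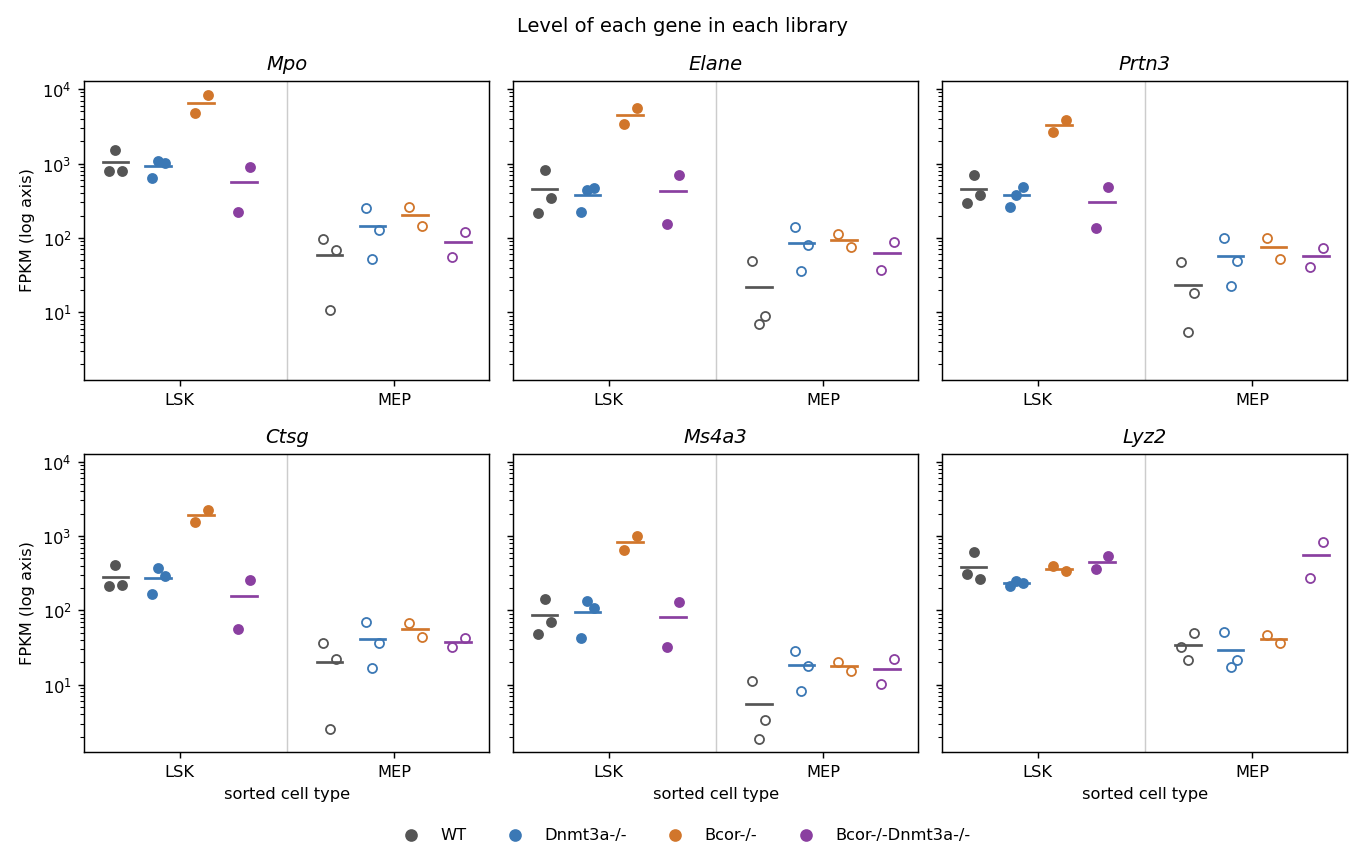
FPKM of the 6 genes on a log axis in each LSK and MEP library, by genotype (points, libraries, filled for LSK; bars, group means). The Bcor-/- LSK points of Mpo, 4710.0 and 8426 FPKM, sit above all other LSK libraries, and the double knockout MEP points of Lyz2, 270.0 and 830.3 FPKM, sit above all other MEP libraries.

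In sum the 5 genes took 2.79% and 4.36% of all FPKM in the Bcor-/- LSK libraries. The share was 0.367%, 0.829% and 0.428% in WT, between 0.323% and 0.571% in Dnmt3a-/-, and 0.132% and 0.471% in the double knockout. In order of mean LSK level, Bcor-/- came first for each of the 5 genes and did not overlap the genotype below it, whereas WT, Dnmt3a-/- and the double knockout each overlapped their neighbour in that order. For Lyz2 the order was double knockout, WT, Bcor-/-, Dnmt3a-/-, and of these neighbours only Bcor-/- and Dnmt3a-/- did not overlap.

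Genes that process and carry the granule proteins were higher with the members in Bcor-/- LSK, again as a description of the contrast that chose the set. Of 8 tested genes of this list, 7 had both Bcor-/- libraries above WT by more than 1.5-fold. Prss57, a further serine protease of the granulocyte lineage, was 60.8 and 99.7 FPKM against 14.5 to 24.5 FPKM in WT (2.09 on the log2 scale). Cst7, a protease inhibitor that controls cathepsin C, was 143 and 246 FPKM against 41.1 to 76.1 FPKM. Cd63, a granule membrane protein, was 162 and 194 FPKM against 57.6 to 73.9 FPKM. Ctsc, the cathepsin that activates the serine proteases, was the exception, with 28.5 and 24.7 FPKM inside the WT range of 22.6 to 36.5 FPKM.

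Among transcription factors of the early granulocyte programme, 5 of 8 were above every WT library, 3 of them by more than 1.5-fold, and 2 of 8, Runx1 and Cbfb, were below every WT library. Above every WT library by more than 1.5-fold were 8.09% of all genes. The share of all genes above or below every WT library at any fold is not given here, so nothing is read from those counts. Cebpe was 47.7 and 79.7 FPKM in Bcor-/- LSK against 3.94, 11.6 and 5.23 FPKM in WT (3.10 on the log2 scale). Gfi1, a repressor needed for granulocyte development, was 80.4 and 96.5 FPKM against 19.3 to 26.3 FPKM. Cebpa, which starts the granulocyte programme, was 44.1 and 52.7 FPKM against 12.4 to 19.8 FPKM. Runx1 was 16.9 and 18.1 FPKM against 24.8 to 28.1 FPKM, and Cbfb, its binding partner, was 57.4 and 60.4 FPKM against 73.3 to 83.1 FPKM. Surface genes of granulocyte-monocyte progenitors were higher for 7 of 10, led by Igsf6 (2.82 on the log2 scale), Fcgr3 (2.70), Ly6c2 (2.28) and Clec12a (2.17). Fcgr3 encodes a receptor that the LSK gate did not use.

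Late neutrophil genes, a list of secondary and tertiary granule genes and other genes of maturing neutrophils, such as the cytosolic S100a8 and S100a9, were higher in 1 of 12, Fcnb, at 339.6 and 421 FPKM against 20.4 to 86.5 FPKM. That count rests on WT replicate 2, the WT library with the highest late neutrophil sum: without it Camp, S100a8 and S100a9 were higher as well, 4 of 12 in all, and the list's median went from -0.41 to 0.41. Monocyte and macrophage genes were higher in 1 of 11 with that library and in 6 of 11 without it. The medians over all WT libraries were -0.41 for the late neutrophil list, 1.29 for the granule processing list and 1.31 for the granulocyte-monocyte progenitor list. Other lineages moved too: 5 of 9 erythroid genes were higher, with sums of 532 and 872 FPKM against 88.6 to 204 FPKM. Stem and multipotent genes were lower than in every WT library for 6 of 8, with sums of 840.2 and 573 FPKM against 1094 to 1259 FPKM, and 7 of 10 eosinophil, basophil and mast cell genes were lower. The share of all genes below every WT library is not given here, so nothing is read from these counts of lower genes. Whether the mix of progenitors inside the LSK gate has a part in the members' levels was not tested.

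In Dnmt3a-/- LSK cells the libraries of the 5 genes overlapped those of WT, although replicate 1 was below every WT library for Mpo, Prtn3, Ctsg and Ms4a3. Their differences from WT lay between -0.24 and 0.10 on the log2 scale, with standard errors of 0.47 to 0.63, and none was called. A gene was called where limma gave an unadjusted p below 0.05 with a change over 1.5-fold. Lyz2 was 214, 247 and 233 FPKM in Dnmt3a-/- LSK, below all WT libraries (305, 602 and 261 FPKM), and was called at -0.65 ± 0.29 (SE; unadjusted p = 0.049, limma adjusted p = 1; exact permutation p = 0.1, the smallest that 3 against 3 can give). Thus 1 of 6 members was called where 0.443% of all genes were. The Lyz2 call was lost without WT replicate 2 (-0.29, limma unadjusted p = 0.16), without any 1 of the 3 Dnmt3a-/- libraries, and when every gene or only the compared genotypes entered the fit. Of late neutrophil genes, 4 of 12 were called lower in the same comparison, among them Camp (-1.99) and Lcn2 (-1.60), each with a limma adjusted p of 1. WT replicate 2 had a late neutrophil sum of 10531 FPKM against 2133 and 1937 FPKM in the other WT libraries, and without it Camp differed by -1.14 and Lcn2 by -0.94. The other 9 lists had no called gene.

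In double knockout LSK cells the granule genes were not raised. Mpo was 221 and 891 FPKM, so that its difference from WT was -1.14 ± 0.56 (SE; unadjusted p = 0.074, limma adjusted p = 0.16). Ctsg differed by -1.14 ± 0.60 (SE), Prtn3 by -0.73, Ms4a3 and Elane by -0.26 each, and Lyz2 by 0.29. None of the 6 members was called, where 28.3% of all genes were, and no member had an unadjusted p below 0.05. The libraries of both groups overlapped for each member. Both double knockout libraries differed widely from each other, since replicate 1 had the 5 genes other than Lyz2 below every WT library and replicate 2 had none of them there. Without replicate 2, Mpo differed by -2.14, Prtn3 by -1.62 and Ctsg by -2.23. At the other end of the leave-one-out fits, the differences were -0.14 for Mpo, 0.16 for Prtn3 and -0.044 for Ctsg. Without WT replicate 2, Lyz2 was called higher (0.65, unadjusted p = 0.012). These WT libraries are those used in choosing the genes.

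Against Dnmt3a-/-, a comparison that holds no library used in choosing the genes, the double knockout LSK cells had higher Lyz2. Its level was 365 and 539 FPKM against 214, 247 and 233 FPKM, a difference of 0.94 ± 0.32 (SE; unadjusted p = 0.017, limma adjusted p = 0.052; exact permutation p = 0.1, the smallest possible). Without double knockout replicate 2 that call was lost (0.66, unadjusted p = 0.11). Mpo (-1.01 ± 0.56, SE) and Ctsg (-1.11 ± 0.60, SE) were not called, and the other 3 lay between -0.12 and -0.50. In all, 1 of 6 members was called against 29.8% of all genes. The standard errors draw on the spread within every genotype, including the libraries used in choosing the genes. Without double knockout replicate 2, the differences were -2.01 for Mpo, -1.38 for Prtn3 and -2.20 for Ctsg. At the other end of the leave-one-out fits they were -0.0053 for Mpo, 0.39 for Prtn3 and -0.019 for Ctsg.

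Processing genes in the double knockout LSK cells went both ways against WT: of 8, Ctsc was called higher (1.20) and 4 were called lower, including Cd63 (-1.55), Prss57 (-1.22) and Serpinb1a (-0.88), which inhibits the granule proteases. Late neutrophil genes were called higher in 6 of 12 against WT and in 12 of 12 against Dnmt3a-/-, with a median of 2.33 in the latter. WT replicate 2, with a late neutrophil sum of 10531 FPKM, lay above both double knockout libraries (8372 and 7013 FPKM). In the leave-one-out fits against WT, Camp ran from 1.02 to 2.37 and Chil3 from 0.81 to 2.67. Lcn2 ran from 1.27 to 2.29 and Mmp9 from 1.31 to 2.11. The double knockout libraries also had 9 of 9 erythroid genes and 7 of 8 lymphoid genes called higher, 7 of 8 stem and multipotent genes called lower, and 3 of 11 monocyte and macrophage genes called higher against WT. Of all genes, 28.3% were called in either direction in that comparison, close to the monocyte and macrophage share. The part of these other cell types in the members' levels was not tested.

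In MEP cells Bcor-/- again had the highest mean for Mpo, Elane, Prtn3 and Ctsg, and Dnmt3a-/- had it for Ms4a3. The order of genotypes otherwise differed from that in LSK and was not tested. Elane was 49.4, 7.08 and 8.86 FPKM in WT, 141, 36.5 and 80.2 FPKM in Dnmt3a-/-, 112.5 and 74.6 FPKM in Bcor-/-, and 36.7 and 88.5 FPKM in the double knockout. WT had the lowest mean for each of the 5 genes other than Lyz2. Mpo was 96.1, 10.8 and 69.2 FPKM in WT, 255, 52.7 and 128 FPKM in Dnmt3a-/-, 263 and 145 FPKM in Bcor-/-, and 55.1 and 121 FPKM in the double knockout. WT replicate 2 was the lowest WT library in MEP for 6 of 6 members, although the LSK library of the same mouse was the highest. Every neighbour in the order of genotypes overlapped for these 5 genes.

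Bcor-/- MEP cells are other cells of the same mice and took no part in the choice of genes. They had both libraries above all 3 WT libraries for 5 of 6 members, which held for 14.7% of all genes tested in MEP. Elane was called higher by 2.54 ± 0.83 (SE; 5.83-fold; unadjusted p = 0.014, limma adjusted p = 0.60). Mpo was called as well (2.19 ± 0.94, SE; 4.55-fold; unadjusted p = 0.046, limma adjusted p = 0.88), as were Prtn3 (2.02 ± 0.84, SE; 4.06-fold; unadjusted p = 0.04, limma adjusted p = 0.86) and Ms4a3 (1.80 ± 0.66, SE; 3.49-fold; unadjusted p = 0.024, limma adjusted p = 0.72). Ctsg, at 67.7 and 44.1 FPKM against 36.8, 2.59 and 22.3 FPKM, differed by 1.92 ± 0.93 (SE; unadjusted p = 0.069, limma adjusted p = 0.96) and was not called. Lyz2 differed by 0.33 with overlapping libraries. Thus 4 of 6 members were called where 2.76% of all genes were, and none passed an adjusted p of 0.05, as 7 of all genes did. The 5 genes other than Lyz2 moved together across the MEP libraries (Pearson r between 0.855 and 0.991), so these calls are not separate results. The exact permutation p was 0.2 for each of the 5, with 0.1 the smallest that 2 against 3 allows. Without WT replicate 2 or without Bcor-/- replicate 1 no member was called, without Bcor-/- replicate 2 Elane was the single called member, and without WT replicate 3 only Mpo and Elane were. The lowest differences came without WT replicate 2: Mpo 1.25, Elane 2.05, Prtn3 1.27, Ctsg 0.91 and Ms4a3 1.35.

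Of the regulators, 2 of 8 were called higher in Bcor-/- MEP: Cebpa, at 7.24 and 7.73 FPKM against 2.09, 0.580 and 2.02 FPKM (1.79, unadjusted p = 0.0041, limma adjusted p = 0.41), and Gfi1, at 5.10 and 3.35 FPKM against 0.981 to 1.58 FPKM (1.19, unadjusted p = 0.02). None of 8 processing genes was called, and 1 of 10 granulocyte-monocyte progenitor genes was, Igsf6 (1.02). Late neutrophil genes were called lower in 4 of 12, led by Retnlg at 0.662 and 1.47 FPKM against 5.70 to 9.53 FPKM (-2.07, limma adjusted p = 0.046). The members' median difference was 1.97 against -0.01 over all 10933 genes tested. Markers of cells that a MEP gate should leave out also varied between libraries. Cd34, which the gate selects against, was 23.9, 5.43 and 60.6 FPKM in WT and 56.9 and 30.0 FPKM in Bcor-/-. Summed levels of the 10 granulocyte-monocyte progenitor genes were 361, 186 and 410.1 FPKM in WT and 501 and 311 FPKM in Bcor-/-, and their part in the result was not tested.

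Dnmt3a-/- MEP cells had higher Elane (2.25 ± 0.74, SE; unadjusted p = 0.015, limma adjusted p = 1) and Ms4a3 (1.69 ± 0.59, SE; unadjusted p = 0.019, limma adjusted p = 1) than WT. Mpo (1.49), Prtn3 (1.45) and Ctsg (1.30) were not called, and Lyz2 differed by -0.28. This made 2 of 6 members called against 0.412% of all genes. Elane and Ms4a3 moved together across the MEP libraries (Pearson r = 0.991), so both calls are not separate results. The libraries of both genotypes overlapped for each member, with an exact permutation p of 0.2 for Elane and Ms4a3. Leaving out WT replicate 2, WT replicate 3 or Dnmt3a-/- replicate 1 ended both calls, while without WT replicate 1 all 5 genes were called. Without Dnmt3a-/- replicate 2 Mpo and Prtn3 were called as well, and without Dnmt3a-/- replicate 3 only Elane was. Cd34 was 44.1, 4.46 and 6.08 FPKM in Dnmt3a-/- and 23.9, 5.43 and 60.6 FPKM in WT, and its part in the result was not tested. Beside the members, 1 further listed gene was called in this comparison, Prg2 (1.93), an eosinophil granule gene. The late neutrophil median was -0.09. The Bcor-/- and Dnmt3a-/- comparisons in MEP share the 3 WT libraries.

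**Figure D2:**
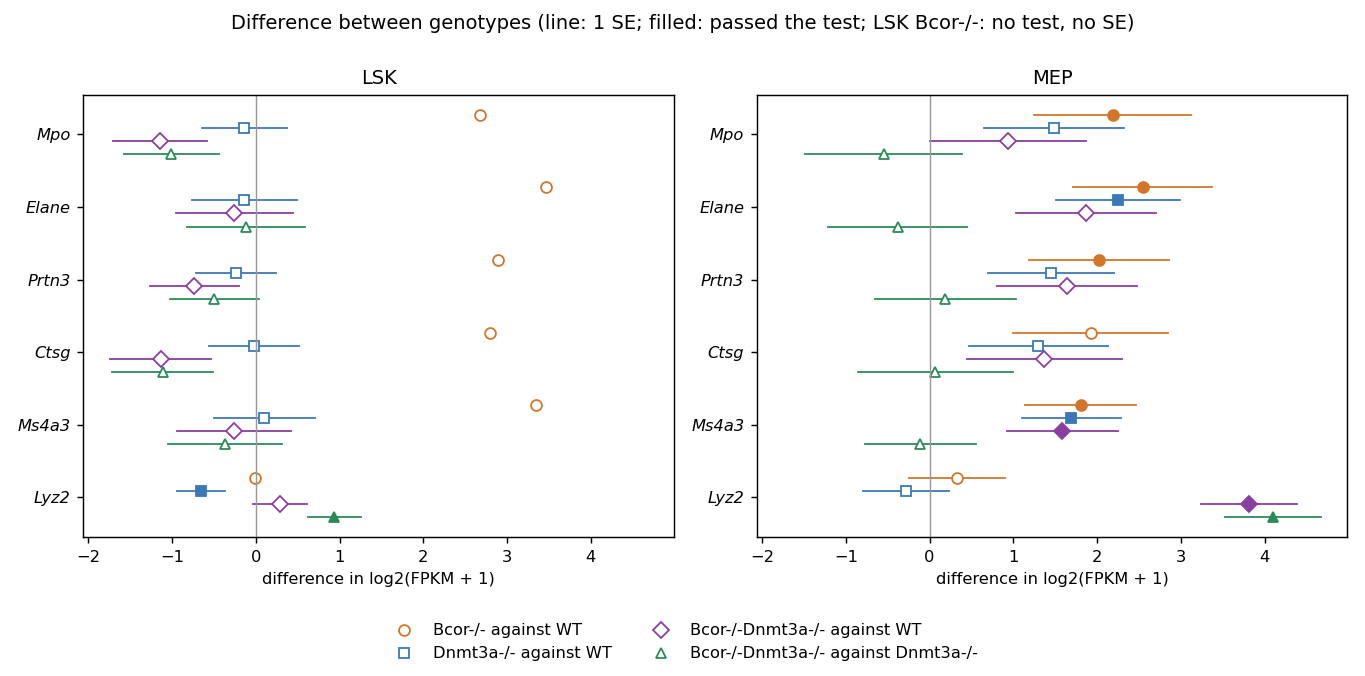
Differences of the 6 genes on the log2(FPKM + 1) scale for each comparison (points, estimates, filled where called; lines, 1 standard error to each side; the Bcor-/- against WT comparison in LSK is drawn without error since it chose the genes). Lyz2 lies near 0 in Bcor-/- LSK (-0.01) and at 3.81 in double knockout MEP, while Elane lies at 3.46 and 1.87.

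Lyz2 changed most in double knockout MEP cells. It was 270.0 and 830.3 FPKM there, 32.4, 21.8 and 49.4 FPKM in WT, 50.7, 17.3 and 21.5 FPKM in Dnmt3a-/-, and 46.5 and 36.7 FPKM in Bcor-/-. The double knockout libraries lay above all others, and the remaining genotypes overlapped. The difference from WT was 3.81 ± 0.57 (SE; 14.1-fold; limma adjusted p = 0.0021), and that from Dnmt3a-/- was 4.10 ± 0.57 (SE; 17.1-fold; limma adjusted p = 0.0012), each with an exact permutation p of 0.1, the smallest possible. Across the alternatives tried, these differences ranged from 3.01 to 4.62 and from 3.29 to 4.91, and the adjusted p reached 0.13 and 0.088 when each genotype had its own variance.

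The other members had smaller differences from WT than Lyz2 in these cells, all above 0, and the gap to Lyz2 was not tested. Against WT, Ms4a3 was called (1.59 ± 0.66, SE; unadjusted p = 0.041, limma adjusted p = 0.096), with overlapping libraries of 10.2 and 22.1 FPKM against 11.3, 1.88 and 3.34 FPKM. That call was lost without WT replicate 2 (1.14), without WT replicate 3 (1.43) and without double knockout replicate 2 (1.06). Elane (1.87 ± 0.83, SE; unadjusted p = 0.053), Prtn3 (1.64), Ctsg (1.37) and Mpo (0.94) were not called. Over the leave-one-out fits, Mpo ran from 0.0020 to 1.52 and Ctsg from 0.35 to 2.05. Without WT replicate 1, Elane (2.70) and Prtn3 (2.35) were called as well, and without double knockout replicate 1 Elane was (2.49). Hence 2 of 6 members were called where 30.9% of all genes were. Against Dnmt3a-/-, the same 4 and Ms4a3 lay between -0.55 and 0.19, and 1 of 6 members was called where 34.7% of all genes were.

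Genes of several other lineages were high in the same libraries as Lyz2. Late neutrophil genes were called higher in 12 of 12 against WT, with a median of 4.50 and with Chil3 (5.25) and Lcn2 (4.87) among the largest, and their summed level was 7126 and 16644 FPKM against 312 to 578 FPKM in WT. Monocyte and macrophage genes were called higher in 8 of 10, with sums of 716 and 164 FPKM against 19.1 to 38.0 FPKM, and lymphoid genes in 6 of 7, with sums of 1245 and 221 FPKM against 80.6 to 88.7 FPKM. Erythroid genes were called higher in 4 of 9 and lower in 1, with sums of 4896 and 67432 FPKM against 3418 to 4972 FPKM, so that replicate 2 stood far apart. In replicate 2 Hbb-b1 was listed at 0 FPKM while Hba-a1 was 55204 FPKM. Whether that 0 stands for a missing value is unknown, so the sum and the Hbb-b1 test are uncertain. Eosinophil, basophil and mast cell genes were called higher in 4 of 8. Gfi1 (2.37), Cebpe (2.03) and Spi1 (1.79) were among 4 of 8 regulators called higher, and 3 of 8 processing genes were. Of all genes, 30.9% were called in either direction in the comparison with WT. Little is therefore read from the smaller of these counts, such as that of the processing genes. The part of cells other than MEP in the Lyz2 level was not tested.

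Within library pairs of the same mouse label, the granule genes were mostly higher in LSK than in MEP cells. The LSK values of WT and Bcor-/- are those used in choosing the genes, so the ratios and counts are a description. The LSK level of Mpo exceeded the MEP level 8.20, 142 and 11.3 times in WT, 2.53, 20.6 and 7.99 times in Dnmt3a-/-, 17.9 and 58.1 times in Bcor-/-, and 4.01 and 7.38 times in the double knockout. Elane ratios ran from 1.58 in Dnmt3a-/- replicate 1 to 115 in WT replicate 2. All 5 genes were higher in LSK in 10 of 10 library pairs, 1 of which may be a pool of 2 mice. Lyz2 was higher in 9 of 10, the exception being double knockout replicate 2 at 0.649. The tables of both cell types may have been scaled separately, so these ratios are not tested as such. A difference of ratios between genotypes is free of a constant factor per table, apart from the 1 FPKM added before taking logs. It is not free of a factor that varies between libraries.

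Among the members, that difference was called for Lyz2 only. The WT LSK values that enter it are among those used in choosing the genes. The tests are therefore not independent of that choice. From WT to double knockout, the LSK minus MEP value of Lyz2 shifted by -3.53 ± 0.75 (SE; limma adjusted p = 0.016), with ratios of 1.35 and 0.649 against 9.40, 27.6 and 5.29. The other members shifted by -1.85 to -2.50 and were not called, so 1 of 6 members was called where 28% of genes were. Over the leave-one-out fits, Mpo ran from -2.82 to -0.82, Elane from -3.38 to -1.11 and Prtn3 from -3.34 to -1.27. Ctsg ran from -3.39 to -1.17 and Ms4a3 from -2.79 to -0.97. The adjusted p for Lyz2 ranged from 0.0095 to 0.34 over the alternatives. The same shift was called lower in 12 of 12 late neutrophil genes (median -3.11), 5 of 10 monocyte and macrophage genes and 6 of 8 eosinophil, basophil and mast cell genes, and the part of such cells in the Lyz2 value was not tested. From WT to Dnmt3a-/-, 0 of 6 members were called and none had an unadjusted p below 0.05, with 0.873% of genes called. Elane had the largest shift (-2.39 ± 1.28, SE; unadjusted p = 0.093), which was called without WT replicate 1 (-3.64, unadjusted p = 0.027).

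Ratios between members of the same library need no scaling between libraries and compare levels per length. Elane per Mpo in LSK was 0.711 and 0.664 in Bcor-/- and 0.694 and 0.789 in the double knockout, against 0.276, 0.530 and 0.437 in WT and 0.345, 0.402 and 0.462 in Dnmt3a-/-. In MEP the ratio was 0.427 and 0.515 in Bcor-/-, 0.665 and 0.733 in the double knockout and 0.128 to 0.691 in WT and Dnmt3a-/-. Lyz2 per Mpo in LSK ran from 0.0397 and 0.0828 in Bcor-/- through 0.227 to 0.393 in Dnmt3a-/- and WT to 0.606 and 1.65 in the double knockout. In MEP it was 4.90 and 6.88 in the double knockout and 0.169 to 2.02 elsewhere. The LSK ratios of Bcor-/- and WT are made of the values used in choosing the genes, so nothing is read from them, and no ratio was tested.

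**Figure D3:**
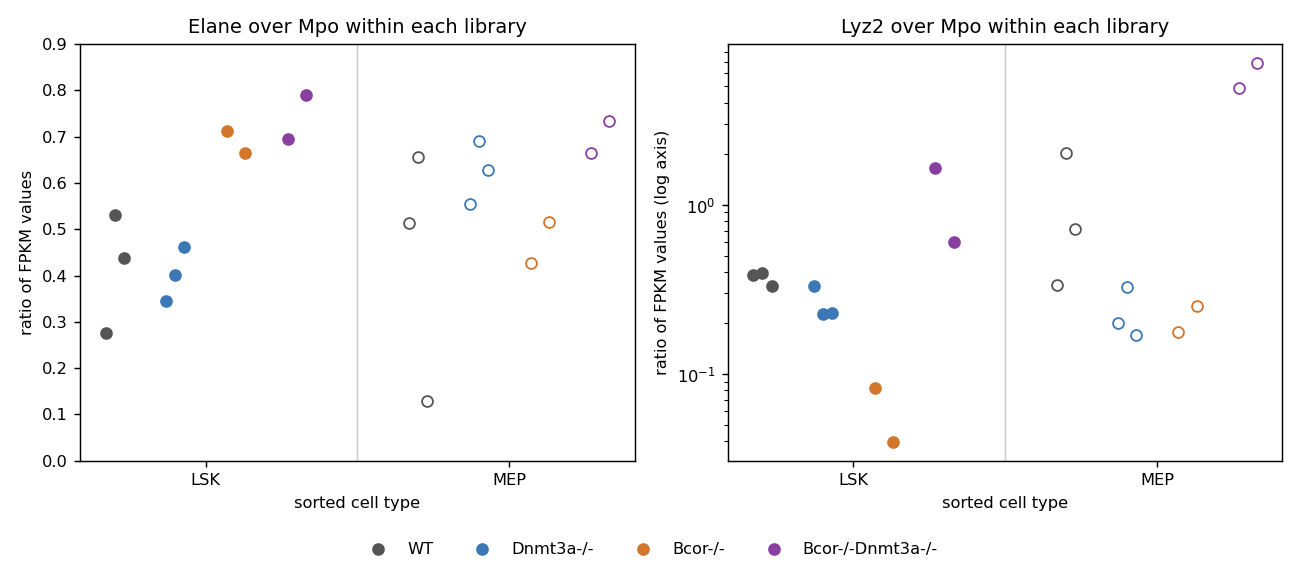
Ratios of FPKM within each library, Elane over Mpo and Lyz2 over Mpo, by genotype and cell type (points, libraries). In MEP, Lyz2 over Mpo is 4.90 and 6.88 in the double knockout and 0.169 to 2.02 in the other libraries.

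Across the 10 LSK libraries the log2 levels of the 5 genes correlated pairwise with Pearson r between 0.956 and 0.996, and Lyz2 correlated with them at 0.169 to 0.342. In the 10 MEP libraries the ranges were 0.855 to 0.991 and 0.171 to 0.375. These libraries share tables and genotypes, the Bcor-/- libraries are the highest for each of the 5 genes in LSK, and the values are given as a description.

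The 5 early genes were also set against the late neutrophil genes, as a description without a test. The summed level of the 5 divided by that of 12 late genes was 2.16 and 3.73 in Bcor-/- LSK, 0.934, 1.37 and 1.67 in Dnmt3a-/-, 0.734, 0.342 and 0.924 in WT, and 0.0719 and 0.351 in the double knockout. The late sums themselves were 5956 and 5676 FPKM in Bcor-/- and 2133, 10531 and 1937 FPKM in WT, so the Bcor-/- libraries lay below WT replicate 2 and above the other 2 WT libraries. In MEP the proportion was 1.82 and 1.9 in Bcor-/-, 0.0888 to 0.417 in WT, 0.469 to 1.09 in Dnmt3a-/-, and 0.0246 and 0.0209 in the double knockout. The high LSK proportion in Bcor-/- rests on the values that chose the genes, so nothing is read from it. In MEP the Bcor-/- libraries were the highest of all 10 and the double knockout libraries were the lowest of all 10, whereas in LSK WT replicate 2 (0.342) lay between both double knockout libraries.

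**Figure D4:**
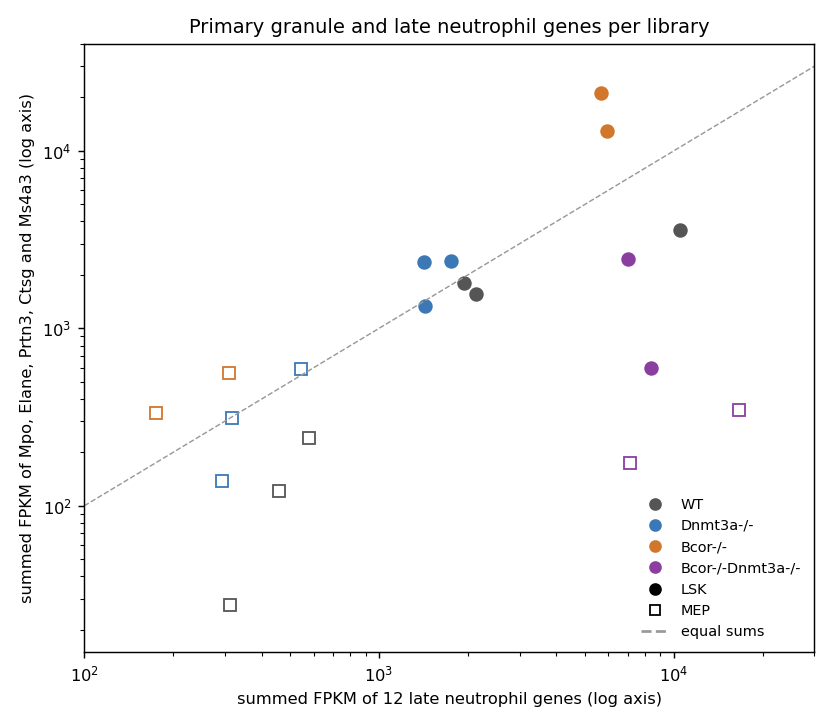
Summed FPKM of Mpo, Elane, Prtn3, Ctsg and Ms4a3 against that of 12 late neutrophil genes, both on log axes, for each library of LSK and MEP (colours, genotypes). The Bcor-/- libraries lie highest relative to their late sum, with 12870.3 and 21154 FPKM of early against 5956 and 5676 FPKM of late transcripts in LSK, and the double knockout MEP libraries lie lowest, with 175 and 348 FPKM against 7126 and 16644 FPKM.

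The genes whose profile over the 10 LSK libraries was most like the mean of the members were Clec12a (r = 0.989), Dtx4 (0.982), Gpc1 (0.977), Tmed3 (0.974), P4hb (0.974), Mgl2 (0.970), Anxa3 (0.967) and Spcs2 (0.967). The Bcor-/- libraries, whose values chose the genes, are the highest there for each member other than Lyz2. The LSK list is therefore a description. Clec12a, a lectin receptor of myeloid cells, was 237 and 303 FPKM in Bcor-/- against 45.3 to 91.9 FPKM in WT and 27.9 and 70.8 FPKM in the double knockout. P4hb, the protein disulfide isomerase of the endoplasmic reticulum, was 499 and 674 FPKM in Bcor-/- against 255 to 305 FPKM in WT. Spcs2, a subunit of the signal peptidase, was 77.4 and 88.5 FPKM against 47.1 to 54.4 FPKM. In MEP the likeness was weaker, from 0.844 for Patl1 and 0.841 for Prss57, through Zfp36, Lbp, Cldn15, Zfp236 and Zmynd8, to 0.820 for Cebpa. Prss57 was at most 5.65 FPKM in MEP, and Lbp and Cldn15 were also low there.

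Prtn3 and Elane are adjacent on the chromosome. Other annotated neighbours with listed values were low, and Gm34064, beside Mpo, and Gm19810, beside Elane, have no row in the tables used here. Lpo, lactoperoxidase, beside Mpo, was at most 1.0 FPKM in LSK and 0.123 FPKM in MEP. Ms4a2, of the same family as Ms4a3, was 0.327 to 5.65 FPKM in LSK, and Oosp2 on its other side was at most 1.35 FPKM. Gzme, beside Ctsg, was listed at 0 in all LSK libraries. Lyz1, the near-identical copy of Lyz2, was at most 0.674 FPKM in LSK and 0.342 FPKM in MEP. Reads common to both lysozyme genes could have been divided between them in counting, which leaves the split uncertain.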

How the data were processed

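RNA from sorted LSK and MEP cells was sequenced by the authors, who, per the submitters' processing notes, used STAR 2.5.1b, SAMtools 1.9 and Cufflinks 2.2.1 with the mm9 genome. They deposited 2 tables of FPKM values, one per cell type, for 24315 genes and 10 libraries each. How the tables were scaled between libraries is not given in the sources used here, and since FPKM hold no read counts, no count test was run. Replicates carry separate mouse names. From these values, log2(FPKM + 1) was computed, genes averaging 1 FPKM or more in a cell type were kept (11952 in LSK, 10933 in MEP, 10773 in both; all 6 members passed in each), and 4 genotype means were fitted with limma 3.58.1 (R 4.3.3, empirical Bayes with a mean trend, two-sided, Benjamini-Hochberg adjustment over all genes). A gene was called at an unadjusted p below 0.05 with a change over 1.5-fold, the thresholds named in the study's methods. Fold changes on this scale understate changes of low genes. LSK minus MEP values were tested per library pair of the same mouse label. Exact permutation tests of single genes were two-sided and cannot go below p = 0.1 with 2 or 3 against 3 libraries.

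The members and the gene lists were chosen with earlier results of these data known. Besides the members, the text names at most 4 called genes per list and comparison, by size of change, together with sorting markers, chromosomal neighbours and the 8 genes most like the members' mean in each cell type; other listed genes were named after their values were seen. Promoters are from RefSeq (GRCm38.p6), where 6 of 6 members matched by symbol. Scripts were tested on simulated data. Alternatives were another pseudocount, other minimum levels, quantile normalization, the compared genotypes only, a replicate block, a variance for each genotype, an adjusted threshold and leaving out each library. Figures were drawn with matplotlib 3.10.9 (Python 3.11.15).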

Additional observations from a re-analysis of the deposited data

Results flagged for a closer look

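The effect of the double knockout on Lyz2 differed between cell types. Its LSK minus MEP difference, taken within each mouse, shifted by -3.53 ± 0.75 (SE) from WT to Bcor-/-Dnmt3a-/- on the log2 scale, a test of the difference itself (limma adjusted p = 0.016). The change from WT was 0.29 in LSK and 3.81 in MEP. The WT LSK values are among those used in choosing the genes, so the test is not independent of that choice. The same shift was called lower in 12 of 12 late neutrophil genes (median -3.11) and 5 of 10 monocyte and macrophage genes. Of all genes, 28% were called in either direction. The part of such cells in the Lyz2 value was not tested.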

How the results depend on the processing

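Values below are numbers of members called out of 6, or log2 differences. With quantile normalization, Mpo and Ctsg were called lower in double knockout LSK, which gave 2 members against WT and 3 against Dnmt3a-/-. A replicate block gave the same counts, 2 and 3. Same-numbered libraries deviated together with correlations of -0.06 to 0.09 in LSK and -0.19 to 0.34 in MEP, so they share a number only. Elsewhere the replicate block left 1 member called in double knockout MEP against WT, and gave 3 and 1 for the LSK minus MEP differences of the double knockout and of Dnmt3a-/- from WT. Double knockout MEP against WT also had 1 called member with no filter on low values, quantile normalization, the compared genotypes only, 1 variance per genotype or an adjusted threshold. Bcor-/- MEP had 2 with no filter and with the compared genotypes only, and 0 with an adjusted threshold (Elane reached the lowest adjusted p of the alternatives, 0.081). Dnmt3a-/- LSK had 0 with no filter, the compared genotypes only or an adjusted threshold, Dnmt3a-/- MEP had 0 with an adjusted threshold, and double knockout against Dnmt3a-/- in LSK had 0 with 1 variance per genotype or an adjusted threshold. The median of the members in Bcor-/- LSK ran from 2.49 with quantile normalization to 3.18.

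Leaving out each library in turn gave 0 to 3 called members for double knockout against WT in LSK, 1 to 3 against Dnmt3a-/- in LSK, 0 to 1 for Dnmt3a-/- LSK, 1 to 4 for double knockout against WT in MEP, 0 to 5 for Dnmt3a-/- MEP, 0 to 5 for Bcor-/- MEP and 0 to 1 for the Dnmt3a-/- LSK minus MEP difference. Where 1 library of a genotype was left, it was assumed to vary like the other groups. Signs turned in some of these fits. For double knockout against WT in LSK, Elane ran from -1.35 to 0.84, Prtn3 from -1.62 to 0.16 and Ms4a3 from -1.26 to 0.73. Against Dnmt3a-/- in LSK they ran from -1.21 to 0.97, -1.38 to 0.39 and -1.36 to 0.63. For Dnmt3a-/- LSK, Mpo ran from -0.30 to 0.18, Elane from -0.56 to 0.39, Prtn3 from -0.50 to 0.11, Ctsg from -0.28 to 0.31 and Ms4a3 from -0.24 to 0.60. In MEP, Lyz2 in Dnmt3a-/- ran from -0.73 to 0.016, and double knockout against Dnmt3a-/- ran from -1.13 to 0.0086 for Mpo, -1.01 to 0.24 for Elane, -0.33 to 0.70 for Prtn3, -0.44 to 0.56 for Ctsg and -0.63 to 0.41 for Ms4a3. The Dnmt3a-/- LSK minus MEP difference ran from -2.17 to 0.0051 for Ctsg and -0.89 to 0.28 for Lyz2. The cause was not tested. Among all 3300 recomputed single-gene values, 2821 kept direction and side of the threshold. With FPKM alone, depth cannot be used to weigh the low MEP levels.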
